A study of Mus musculus with 9 samples.

Results

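The immunoproteasome, the standard catalytic subunits it replaces and the ubiquitin-like modifier Ubd were followed in mouse liver after systemic CD40 activation. The genes were 9 of the 24341 in the deposited expression table. They comprised the inducible catalytic subunits Psmb8, Psmb9 and Psmb10, the PA28 activator subunits Psme1 and Psme2, the standard catalytic subunits Psmb5, Psmb6 and Psmb7, and Ubd. They were chosen by name, with the difference between treated and control mice already known. Their values in that comparison are therefore given as a description, without a p-value.

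All 9 mice were C57BL/6 mice of WT genotype, and RNA came from bulk liver 48 hours after treatment. The 3 anti-CD40 mice (numbers 2, 5 and 9) received FGK45, an antibody that activates CD40, and the 6 control mice (numbers 3, 4, 7, 8, 11 and 12) are labeled PBS. The labels give neither age nor sex. The methods state sex-matched mice aged 8 to 12 weeks unless indicated otherwise, and exclusion of treated mice whose blood B cells did not fall. Libraries were made from the 3′ ends of transcripts and the authors deposited FPKM, which are fragment counts scaled to transcript length and to the mapped total. Each column is taken as 1 mouse. Nothing in the labels says whether the mice were treated or processed together, so the spread between them may include technical spread.

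The 20S proteasome is a barrel-shaped protease whose inner rings carry 3 kinds of catalytic subunit. In most cells these are encoded by Psmb5, Psmb6 and Psmb7. Interferon-γ and other inflammatory signals induce Psmb8, Psmb9 and Psmb10, whose products are built into newly assembled particles in their place and change the peptides available to MHC class I. Psme1 and Psme2 encode PA28α and PA28β, which form a ring that opens the barrel. Ubd encodes FAT10, a modifier that is attached to proteins and takes them to the proteasome.

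The start regions of 4 of the genes are shown because each holds a match to a motif of a factor family known to act on inducible or standard proteasome genes. RefSeq promoter windows of 300 bases (GRCm38.p6, the same assembly as mm10) were found for 8 of the 9 genes, and Psmb7 had no entry. The windows were searched on both strands for an interferon regulatory factor motif (GAAANNGAAA), a STAT motif (TTCNNNGAA), the NF-κB motif and the core of the antioxidant response element (TGACNNNGC). Among all 32851 windows, the shares that held a match were 3.44%, 8.3%, 8.46% and 12.4%, in that order. Capitals mark the STAT match in Psmb8, the NF-κB match in Ubd and the antioxidant response element match in Psmb5 and Psmb6. Each sequence runs 5′ to 3′ on the strand of its gene.
Psmb8 (chr17:34198088-34198116, plus strand): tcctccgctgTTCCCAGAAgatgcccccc
Ubd (chr17:37193772-37193891, plus strand): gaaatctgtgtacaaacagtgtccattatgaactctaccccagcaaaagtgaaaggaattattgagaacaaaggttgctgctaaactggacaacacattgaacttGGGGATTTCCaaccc
Psmb5 (chr14:54618023-54618115, minus strand): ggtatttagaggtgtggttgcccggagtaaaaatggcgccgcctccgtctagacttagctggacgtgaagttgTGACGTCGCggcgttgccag
Psmb6 (chr11:70525237-70525356, plus strand): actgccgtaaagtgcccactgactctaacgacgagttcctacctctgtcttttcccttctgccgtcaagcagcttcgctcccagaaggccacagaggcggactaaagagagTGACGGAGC

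Counted from the RefSeq start site, the STAT match of Psmb8 began at base -97 and the NF-κB match of Ubd at -15. The antioxidant response element matches began at -47 in Psmb5 and -9 in Psmb6. GENCODE starts Psmb8 farther out, at 34197721, so that there the STAT match lies inside the gene and not before it. Psme1 held an interferon regulatory factor match that began at base 10, downstream of the start. The windows of Psmb9, Psmb10 and Psme2 held none of the 4 motifs. Psmb9 and Tap1, a subunit of the transporter that carries peptides to MHC class I, are transcribed away from each other, and the 225 bases between their RefSeq start sites (chr17:34187331-34187555) held none either. GENCODE places both starts farther out, so that there the genes overlap by 212 bases and have no bases between them. These are matches of letters and no binding was measured here.

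FPKM is divided by transcript length although 3′ libraries give about the same number of reads per transcript at any length. Levels are therefore compared here between mice, for a gene or for the sum over a fixed list, and not between genes. The length cancels in the fold difference of a gene and in the change of a ratio between 2 genes. The table gives no read totals, so absolute depth is unknown. Relative depth, read from the steps between low values, ran from 0.870 to 1.131. Of all FPKM in a mouse, Saa1, Saa2 and Saa3 made up 25.4% to 25.9% after anti-CD40 and 0.0449% to 0.380% in controls.

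Ubd differed most of the 9 genes. Anti-CD40 mice 2, 5 and 9 had an FPKM of 3154, 2181 and 2751, whereas the control mice ranged from 2.01 to 5.70 with a median of 4.10. Every treated mouse was far above every control mouse. The means were 2695 ± 489 (SD, n = 3) and 3.72 ± 1.42 (SD, n = 6), a 725-fold ratio of means, with a log2 difference of 9.54 (SE 0.32) on the log2(FPKM + 0.1) scale. In the table the gene lies on chr17 from 37193892 to 37196101 (mm10). In bulk tissue, a change in the number of cells of a type and a change in RNA per cell cannot be told apart, and this holds for each result here.

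Psmb8 and Psmb9 were next in size among the genes higher after anti-CD40. Psmb8, whose product takes the place of the Psmb5 product, had an FPKM of 169.5, 158.8 and 115.3 in anti-CD40 mice 2, 5 and 9. Control values ran from 41.3 to 68.1 with a median of 47.8. The groups did not overlap, and the lowest treated mouse, mouse 9, was well above the highest control mouse, mouse 7. Means were 147.9 ± 28.7 (SD, n = 3) and 50.9 ± 9.84 (SD, n = 6), with a log2 difference of 1.54 (SE 0.18).

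Psmb9, the counterpart of Psmb6, had an FPKM of 79.3, 84.7 and 72.4 in the anti-CD40 mice, and the control mice ranged from 22.4 to 53.6 with a median of 25.7. The groups did not overlap. Control mice 4 and 7, at 36.9 and 53.6, stood above the other 4, which lay between 22.4 and 26.2. The coefficient of variation was accordingly 37.8% among control mice and 7.84% among treated mice. The log2 difference was 1.39 (SE 0.25), with means of 78.8 ± 6.18 (SD, n = 3) and 31.6 ± 11.9 (SD, n = 6).

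Psmb10, the counterpart of Psmb7, showed the smallest difference of the inducible catalytic subunits. It had an FPKM of 65.0, 78.2 and 57.7 after anti-CD40, and controls ran from 35.1 to 51.3 with a median of 40.7. All treated mice were above all control mice, with 57.7 in mouse 9 next to 51.3 in control mouse 7. The log2 difference was 0.68 (SE 0.14), or a 1.61-fold ratio of means. Psmb8 and Psmb9 lie on chr17, from 34198195 to 34201454 and from 34182099 to 34187330, and Psmb10 lies on chr8 from 105935728 to 105938392.

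**Figure D1:**
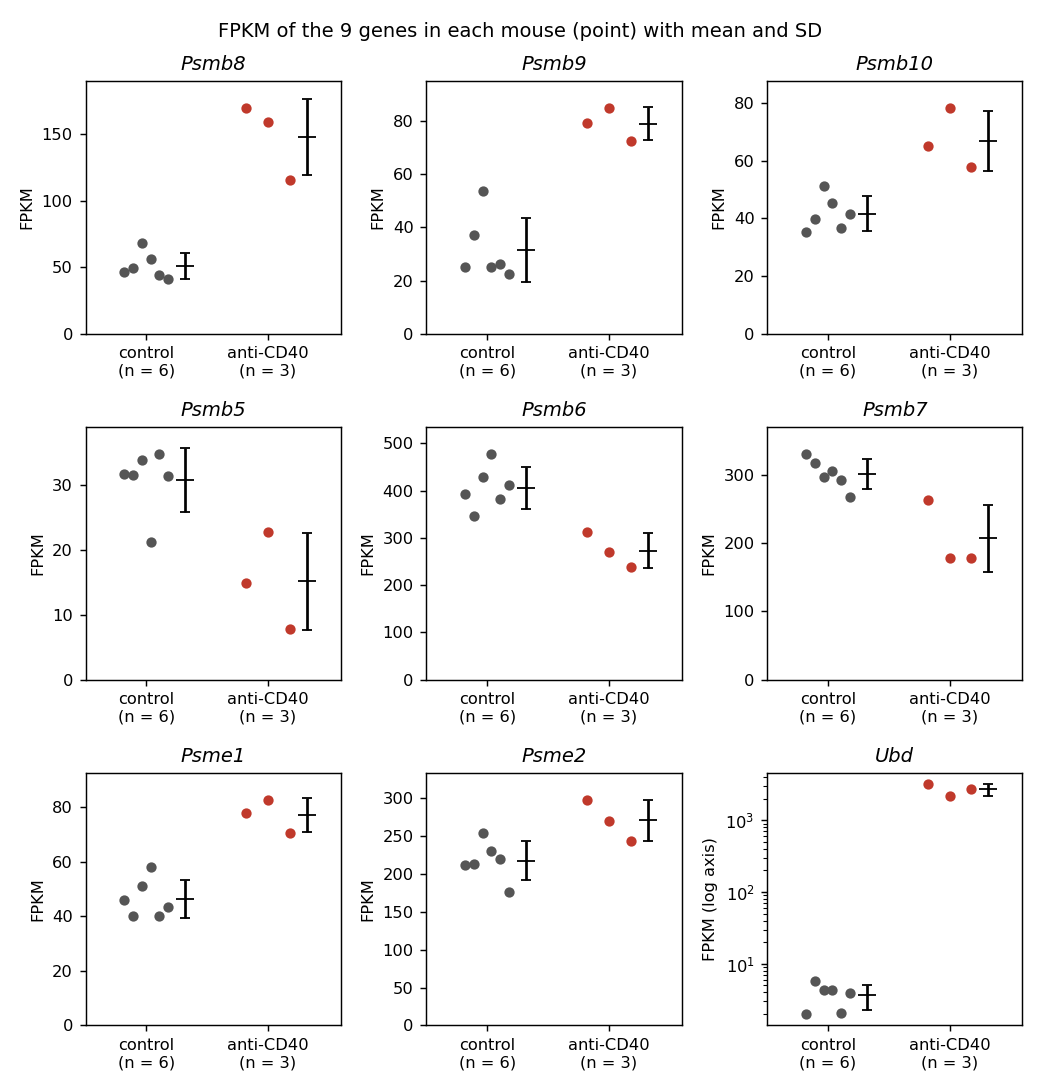
FPKM of each of the 9 genes in the 6 control mice (gray) and the 3 anti-CD40 mice (red), 1 point per mouse, with the group mean and SD beside the points; the Ubd axis is logarithmic and the others start at 0. Ubd runs from 2.01 to 5.70 in controls and from 2181 to 3154 after anti-CD40, and only Psme2 and Psmb5 have groups that overlap.

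The PA28 genes differed less, and unequally. Psme1 had an FPKM of 77.9, 82.7 and 70.5 after anti-CD40, and controls ran from 40.1 to 58.0 with a median of 44.6. The groups did not overlap, and the log2 difference was 0.74 (SE 0.14). Psme2 had an FPKM of 298, 270 and 244 after anti-CD40, and controls ran from 176 to 254 with a median of 217. Control mouse 7 (254) was above anti-CD40 mouse 9 (244), and the log2 difference was 0.32 (SE 0.13).

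Both PA28 genes carry a limit from the way reads could be assigned. The table gives Psme1 the same position (chr14, 55578494 to 55585254) as Emc9, which the GENCODE annotation places on the opposite strand with its 3′ end overlapping that of Psme1. Psmb5 likewise shares its listed position with Mir686, which is at the floor of the table in every mouse. Emc9 had an FPKM of 6.54 ± 0.46 (SD, n = 3) after anti-CD40 and 34.6 ± 8.71 (SD, n = 6) in controls. Whether strand was used in counting is not given in the sources used here. Of the 451 windows of 50 bases in the last 500 bases of the Psme2 transcript, 249 (55.2%) also occurred in the copies Gm7928 or Psme2b, and 79 (17.5%) of those of Psme1 occurred in other annotated genes. Psme2b had an FPKM of 1.74 ± 0.38 (SD, n = 3) after anti-CD40 and 1.49 ± 0.23 (SD, n = 6) in controls.

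The 3 standard catalytic subunits were each lower after anti-CD40. Psmb5, which carries the chymotrypsin-like activity, had an FPKM of 14.9, 22.7 and 7.83 in anti-CD40 mice 2, 5 and 9, and 21.2 to 34.8 with a median of 31.6 in the control mice. The groups overlapped because control mouse 8 (21.2), which stood apart from the other 5 control mice (31.4 to 34.8), was below anti-CD40 mouse 5. The log2 difference was -1.13 (SE 0.28), and the treated mice varied with a coefficient of variation of 49.2%. Without mouse 9, the lowest, the log2 difference was -0.72. The end of the Psmb5 transcript is not unique, as 231 (51.2%) of its windows of 50 bases occurred in Gm3375.

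Psmb6, which carries the caspase-like activity, had an FPKM of 311, 270 and 237 after anti-CD40, and controls ran from 346 to 477 with a median of 402. The groups did not overlap and the log2 difference was -0.58 (SE 0.13). Psmb7, which carries the trypsin-like activity, had an FPKM of 263, 179 and 179 after anti-CD40, and controls ran from 267 to 331 with a median of 301. Anti-CD40 mouse 2 (263) came close to control mouse 12 (267), and the log2 difference was -0.57 (SE 0.14). The mean of the control mice was 1.49 times that of the anti-CD40 mice for Psmb6 and 1.46 times for Psmb7. Psmb5 lies on chr14 from 54614120 to 54617995, Psmb6 on chr11 from 70525357 to 70527858 and Psmb7 on chr2 from 38588046 to 38643906.

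At an adjusted p under 0.05 (limma, Benjamini-Hochberg over the 13807 genes tested), 5 of the 9 genes were called higher, 3 were called lower and Psme2 was not called. Of all genes tested, 45.1% were called, 23.5% higher and 21.7% lower. Without overlap between groups, 5 of the 9 were higher and 2 were lower, against 22.7% and 19.6% of all genes tested. Since the genes were chosen on this contrast, nothing is read from these counts.

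How far the standard subunits were lower depended on how the mice were scaled to each other. With Saa1, Saa2 and Saa3 left out and each mouse rescaled, the log2 difference was -0.21 for Psmb6, -0.20 for Psmb7 and -0.76 for Psmb5, and the calls were 6 higher and 0 lower. With quantile normalization it was -0.10, -0.087 and -1.01, and the calls were 6 higher and 1 lower. These scalings moved the median difference of all genes from 0.0056 to 0.35 and to -0.091. Relative to those medians, Psmb5, Psmb6 and Psmb7 were at -1.11, -0.56 and -0.55 without the Saa genes. Under quantile normalization they were at -0.92, -0.013 and 0.0042. Psmb8, Psmb9, Psmb10, Psme1 and Ubd were called higher under each of the 19 alternative settings, and Psme2 became a call under both scalings, at 0.68 and 0.80. Psmb5 was not called without the Saa genes, and Psmb6 and Psmb7 under neither scaling. Median of ratios scaling left Psmb5, Psmb6 and Psmb7 at -1.12, -0.57 and -0.56, all called lower. These calls show only how the results for the genes depend on the processing. They add no support for a difference, since the genes were chosen on this contrast.

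**Figure D2:**
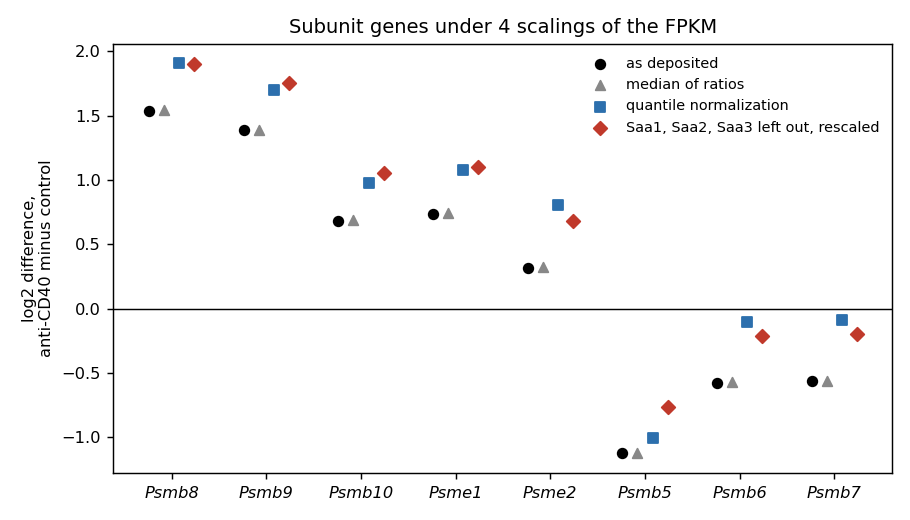
Log2 difference (anti-CD40 minus control) of the 8 proteasome subunit genes with the FPKM as deposited (black circles), after median of ratios scaling (gray triangles), after quantile normalization (blue squares) and with Saa1, Saa2 and Saa3 left out (red diamonds). With the Saa genes left out and under quantile normalization, Psmb8 moves from 1.54 to 1.90 and 1.91, and Psmb6 from -0.58 to -0.21 and -0.10. The inducible genes stay above 0 in these 2 scalings. Psmb6 and Psmb7 approach 0, whereas Psmb5 is at -0.76 and -1.01. The median of all genes is itself at 0.35 with the Saa genes left out and at -0.091 under quantile normalization. Under median of ratios scaling Psmb6 stays at -0.57.

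The balance of inducible over standard subunit within a mouse is free of any single scale factor for that mouse. Anti-CD40 mice 2, 5 and 9 had a log2 ratio of Psmb8 to Psmb5, relative to the control mean, of 2.78, 2.08 and 3.16, while the control mice ran from -0.38 to 0.68. The fold over the control geometric mean was 6.87, 4.23 and 8.92. Psmb9 to Psmb6 gave 1.78, 2.08 and 2.04 in the anti-CD40 mice, against -0.51 to 0.75 in controls. Psmb10 to Psmb7 gave 0.85, 1.67 and 1.24, against -0.37 to 0.33. No control mouse reached a treated mouse in any of the 3 pairs. The mean log2 shifts were 2.67 ± 0.55, 1.97 ± 0.16 and 1.25 ± 0.41 (SD, n = 3). Psme1 to Psme2, both inducible, shifted by 0.42 ± 0.12 (SD, n = 3), with control mice from -0.22 to 0.24.

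**Figure D3:**
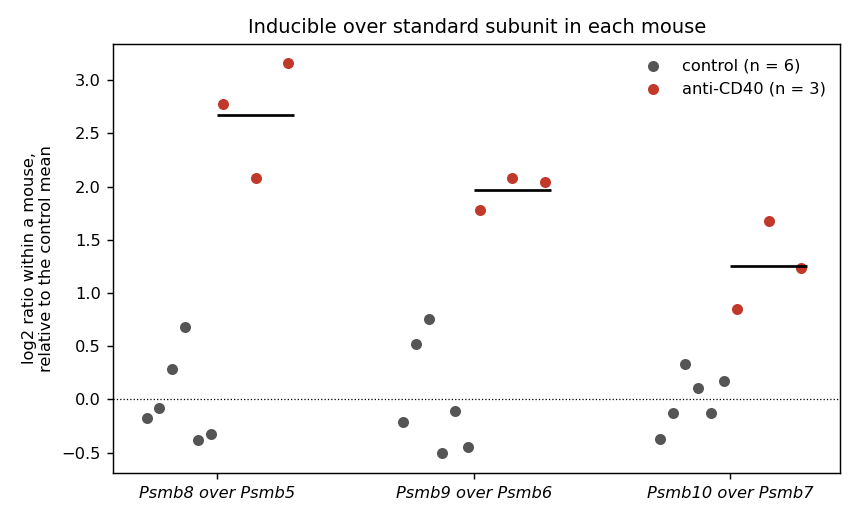
Log2 ratio of each inducible catalytic subunit to the standard subunit it replaces, within each mouse and relative to the mean of the 6 control mice (dotted line at 0), for control (gray) and anti-CD40 mice (red) with the treated mean as a bar. The treated means are 2.67 for Psmb8 over Psmb5, 1.97 for Psmb9 over Psmb6 and 1.25 for Psmb10 over Psmb7, and no control mouse reaches a treated mouse.

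Markers of infiltrating and resident cells also differed between the groups. The summed FPKM of 8 pan-leukocyte genes was 1063 to 1569 after anti-CD40 and 146.5 to 244.0 in controls, with 8 of 8 called higher. For neutrophils the sum was 4213 to 5201 against 18.36 to 155.7 (7 of 7 tested higher, and 4 of 8 genes at the floor of the table in at least 1 control mouse), for monocytes or macrophages 322.1 to 439.9 against 45.93 to 80.22 (7 of 9 higher, 1 lower), for T or NK cells 17.69 to 21.85 against 3.924 to 6.702 (8 of 9 higher) and for B cells 25.65 to 36.73 against 1.845 to 7.182 (5 of 5 tested higher). The Kupffer cell sum was 37.22 to 48.1 against 267.9 to 425.2, with 5 of 5 lower. S100a8 and S100a9 made up most of the neutrophil sum, with means of 3316 and 1437 after anti-CD40. Cd52 (mean 1112 after anti-CD40) made up most of the pan-leukocyte sum, and Cd5l (mean 254.6 in controls) most of the Kupffer cell sum of controls. Over all genes tested, 23.5% were called higher and 21.7% lower. The 8 hepatocyte genes, which mark the labeled tissue, were abundant in every mouse, at 6580 to 7554 after anti-CD40 and 14920 to 27630 in controls (6 lower, 1 higher). Leukocytes are known to express the immunoproteasome without stimulation, and the part of these cell types in the values of the 9 genes was not tested.

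Mouse 5 and control mouse 4 stood apart in tissue markers. The sum of pancreatic acinar genes was 1442 in anti-CD40 mouse 5 and 28.36 to 197.2 in the other 8 mice, and that of erythroid genes was 50530 in control mouse 4 and 4176 to 14320 in the others. Without mouse 5 the log2 differences were 9.69 for Ubd, 1.48 for Psmb8, 1.33 for Psmb9, 0.57 for Psmb10, 0.69 for Psme1, 0.32 for Psme2, -1.48 for Psmb5, -0.57 for Psmb6 and -0.47 for Psmb7. Without control mouse 4 they were 9.68, 1.53, 1.45, 0.67, 0.70, 0.31, -1.12, -0.62 and -0.55 in the same order.

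Of 43 other proteasome genes in the table, 42 were tested. Over all genes tested, 23.5% were called higher and 21.7% lower. These shares, from the FPKM as deposited and all mice, are to be set beside the counts of this list and those that follow in that setting. Of the 42, 3 were called higher and 11 lower, with a median log2 difference of -0.23 against 0.0056 for all genes tested. Leaving out each mouse in turn moved the number called lower to between 6 and 20, with 20 without control mouse 4 and 6 without anti-CD40 mouse 5. The calls were 7 higher and 2 lower, with a median of 0.14, once the Saa genes were left out, and 8 higher and 5 lower, with a median of 0.046, under quantile normalization. Across the whole table, 5635 genes were called higher and 1647 lower without the Saa genes. Under quantile normalization these numbers were 2990 and 3456, against 3240 and 2990 as deposited. The 2 still called lower without the Saa genes were Psma3 and Psmg3, and the other falls named in the next 2 paragraphs lost their call in that setting. Adjusted p-values that follow are from limma over all 13807 genes.

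Within the 20S core, 4 of the 12 other subunits tested were called lower and none higher. The largest falls were in Psma5 (-0.75, adjusted p = 0.00576), Psma3 (-0.68, adjusted p = 0.000211) and Psmb1 (-0.46, adjusted p = 0.00514, but 0.023 and not called under quantile normalization). Psmb11, the thymus-specific catalytic subunit, was at 0.0109 ± 0.00158 (SD, n = 3) and 0.0156 ± 0.00739 (SD, n = 6), next to the floor of 0.01, and was not tested. In the 19S regulatory particle, which recognizes and unfolds ubiquitinated proteins, 2 of 19 were called higher and 3 lower. Psmd8 was higher (0.54, adjusted p = 0.00192), as was Psmd11 (0.33, adjusted p = 0.0405), whereas Adrm1 (-0.57, adjusted p = 0.0281), Psmd3 (-0.50, adjusted p = 0.0404) and Psmd6 (-0.37, adjusted p = 0.0154, but 0.0070 and not called under quantile normalization) were lower. Of these, only the call of Psmd8 held without each mouse in turn.

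The assembly chaperones held the largest rise of any other proteasome gene. Psmd10, which encodes gankyrin, a chaperone of the 19S base, had an FPKM of 114.3 ± 7.78 (SD, n = 3) after anti-CD40 and 49.6 ± 5.04 (SD, n = 6) in controls, with a log2 difference of 1.21 (SE 0.11, adjusted p = 1.71e-05). Chaperones of the 20S particle were lower or not called. Psmg3 (-0.71, adjusted p = 0.000777), Psmg1 (-0.64, adjusted p = 0.000439) and Pomp (-0.49, adjusted p = 0.0359), the maturation factor of the 20S particle, were lower, and the remaining 4 of the 8 chaperones were not called. The calls of Psmg3 and Psmg1 held without each mouse in turn, and that of Pomp was lost without any mouse but control mouse 4. Among alternative activators and the inhibitor, Psme4, which encodes PA200, was lower (-0.49, adjusted p = 0.0344), a call that held without control mouse 4 or 7 but was lost without any other mouse. Psme3, which encodes PA28γ, was at -0.25 (adjusted p = 0.0904) and Psmf1, which encodes the inhibitor PI31, at -0.13 (adjusted p = 0.379), and both lay above 0 with the Saa genes left out (0.12 and 0.23), a scaling in which the median of all genes was 0.35.

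**Figure D4:**
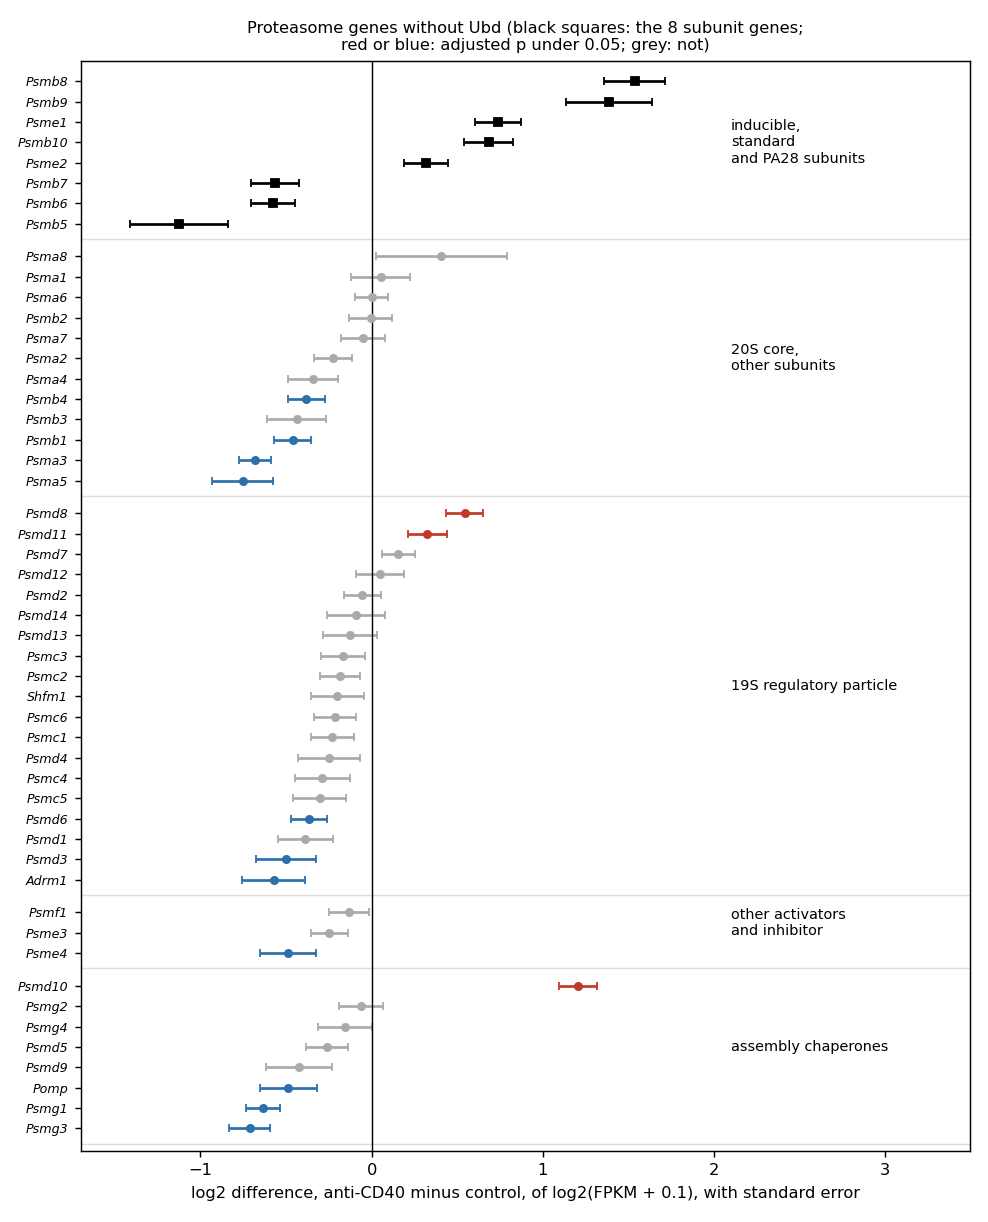
Log2 difference (anti-CD40 minus control) with its standard error for the 8 inducible, standard and PA28 genes (black squares) and the 42 other proteasome genes tested, in red where called higher, blue where called lower and gray where not called. Psmb8 at 1.54 and Psmd10 at 1.21 lie at the right, Psmb5 at -1.13 lies farthest left, and the other proteasome genes apart from Psmd10 lie between -0.75 and 0.54.

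The enzymes and partners of FAT10 did not follow Ubd. None of the 6 tested was called in either direction by limma (0 at an unadjusted p under 0.05), and the median log2 difference was 0.037. Uba6, which activates FAT10, was at 0.24 (adjusted p = 0.248; -0.10 under quantile normalization) and Nub1, which binds FAT10 and speeds its degradation, was at 0.13 (adjusted p = 0.524). With the Saa genes left out 5 were called higher, and under quantile normalization 2. Across the whole table, 5635 and 2990 genes were called higher in these 2 scalings. In the pathway of ISG15, another interferon-induced modifier, 5 of 6 genes were higher, with a median of 1.68. Isg15 itself rose by 1.95 (adjusted p = 0.000257), the ISG15 protease Usp18 by 2.05 (adjusted p = 0.000119) and the ligase Herc6 by 1.85 (adjusted p = 5.11e-05). Among the ubiquitin genes, the polyubiquitin gene Ubb was higher (0.41, adjusted p = 0.0341). The call of Ubb was lost without anti-CD40 mouse 2 or 9 and without control mouse 8 or 12.

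In the list of class I peptide loading genes, which includes the regulator Nlrc5, 9 of 12 were called higher and none lower, with a median of 0.99. Tap1, the neighbor of Psmb9, rose by 1.88 (adjusted p = 1.45e-05), the class I heavy chain H2-D1 by 1.85 (adjusted p = 2.01e-06) and the class I regulator Nlrc5 by 1.64 (adjusted p = 8.05e-05). Of 10 regulators of inducible or standard subunits, 5 were higher and 1 lower. Relb rose by 3.28 (adjusted p = 2.38e-06) and Irf8 by 2.23 (adjusted p = 5.45e-06). Irf1 was at 0.33 (adjusted p = 0.179). Nfe2l1, which drives the standard subunit genes when proteasome activity is low, was at -0.19 (adjusted p = 0.452; 0.17 with the Saa genes left out), and Ngly1, the enzyme that deglycosylates the Nfe2l1 product, was lower (-0.60, adjusted p = 0.0121), but was at -0.24 and not called with the Saa genes left out.

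Within the control mice, the members were compared with each other, since this spread was not used to choose them. Of 36 pairs over 6 mice, 25 had a Pearson r above 0, with r from -0.73 to 0.92. By the exact permutation test, 2-sided, 4 pairs had an unadjusted p under 0.05 and 0 an adjusted p under 0.05, and the smallest adjusted p was 0.3. By Spearman's rho the numbers were 1 and 0. For Psme1 and Psmb6, r was 0.92 (exact permutation p = 0.00833) and rho was 0.94 (exact permutation p = 0.0167), with r = 0.66 without the 2 mice farthest from the Psme1 median. For Psmb8 and Psme2, r was 0.87 (exact permutation p = 0.0292, adjusted p = 0.412) and rho was 0.83 (exact permutation p = 0.0583), and r was 0.73 without the 2 farthest mice. For Psmb8 and Psmb9, r was 0.79 (exact permutation p = 0.0444, adjusted p = 0.412) and rho was 0.60 (exact permutation p = 0.242), and r was 0.88 without the 2 farthest mice. For Psmb8 and Psmb10, r was 0.82 (exact permutation p = 0.0458, adjusted p = 0.412) and rho 0.60 (exact permutation p = 0.242), but r was -0.31 without the 2 farthest mice, so that relation rests on them. Values of 1 mouse share a library and its depth.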

How the data were processed

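The authors aligned reads of QuantSeq 3′ libraries to mm10 with STAR and made FPKM values with Cufflinks and CuffDiff. The deposited table holds 1 FPKM per gene and mouse, with a floor of 0.01. The annotation, the strand setting and any filter are not given in the sources used here. Mice were grouped by the sample labels.

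Of 24341 genes, 15 with a failed estimate were left out. Those averaging 0.1 FPKM or more over the 9 mice (13807) entered limma 3.58.1 in R 4.3.3 as log2(FPKM + 0.1), with group as the single term, a trended eBayes step, 2-sided tests and Benjamini-Hochberg adjustment at 0.05. This scale understates the change of low genes. No count model was used. Control mice were compared by an exact permutation test. Summaries and plots used Python 3.11.15, numpy 2.4.6, pandas 2.3.3, scipy 1.17.1 and matplotlib 3.10.9. Scripts were tested on simulated data.

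The members and gene lists were chosen with earlier results of these data known. Named are the 9 members, up to 3 of the largest rises and falls called in each list, the genes Psmb11, Psme3, Psme4, Psmf1, Pomp, Uba6, Nub1, Tap1, Irf1 and Nfe2l1, and the 3 genes most alike for Ubd, Psmb8 and Psmb5. Some genes that this rule took are not reported here. Emc9 and Psme2b were named after their values were seen, for reads that could be shared. Alternatives changed the pseudocount (1 or 0.01), the filter (none, or an average of 1 FPKM), the scaling (quantile, median of ratios, or without the Saa genes), the variance model (untrended, robust, or array weights) and the mice (each left out in turn). Relative depth was read from the steps between low values. Windows of 50 bases from the last 500 bases of each transcript were matched to GENCODE transcripts. Promoters are from RefSeq.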

Additional observations from a re-analysis of the deposited data

Results flagged for a closer look

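In 2 of the 44 results examined, 1 of the 6 control mice stood apart by Dixon's test at 95%, and chance alone gives about 1 in 20, or 2.2. For Psmb5, control mouse 8 was lowest, with an FPKM of 21.2, and the gap to the next mouse was 0.750 of the range of the control mice. Without it the log2 difference of Psmb5 was -1.23, against -1.13 with all mice. For Psmd8, control mouse 12 was highest, with an FPKM of 354.7, and the gap was 0.789 of the range. The anti-CD40 group, with 3 mice, was too small for this test.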

How the results depend on the processing

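With Saa1, Saa2 and Saa3 left out and each mouse rescaled, the genes called across the table were 5635 higher and 1647 lower, against 3240 and 2990. Of the 9 genes, 0 were then called lower, and 1 under quantile normalization. Other proteasome genes called lower numbered 2 without the Saa genes, 5 under quantile normalization, 7 with no filter on low values and 18 with array weights, and those called higher numbered 7 and 8 under the first pair of these, with medians of 0.14 and 0.046. The cause was not tested.

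Leaving out each mouse in turn, other proteasome genes called lower ranged from 6 to 20. They were 7, 6 and 7 without anti-CD40 mouse 2, 5 or 9, 7 without control mouse 3 or 11, and 20 without control mouse 4. Those called higher ranged from 2 to 3, and the median over all those tested from -0.25 to -0.20. Pairs of the 9 genes with an unadjusted p under 0.05 among control mice ranged from 1 to 4 (1 without mouse 3, 7 or 8). Psme2 was called without control mouse 7 and with array weights. Of 25 other genes that the naming rule took and that were called, 14 kept the call under every alternative, and 7 lost it without at least 1 mouse (Psmd11, Psmd3, Adrm1, Psmd6, Pomp, Psme4 and Ubb). Psma5, Psmb1, Psmg1 and Ngly1 lost it with the Saa genes left out, and Psmb1 also under quantile normalization. Without each mouse in turn, the mean log2 shift of the ratios lay between 2.43 and 2.97 for Psmb8 over Psmb5, 1.86 and 2.12 for Psmb9 over Psmb6 and 1.04 and 1.45 for Psmb10 over Psmb7. Signs turned, without being a call, for Psmb1 (0.023), Psmd6 (0.0070) and Uba6 (-0.10) under quantile normalization, and with the Saa genes left out for Nfe2l1 (0.17), Psme3 (0.12) and Psmf1 (0.23), all below the median of all genes in that scaling (0.35). Depth limits genes near the floor of the table, such as Psmb11. No paired analysis was possible because the groups share no mouse numbers.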

Other observations

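The genes whose values ran most closely with Ubd, Psmb8 and Psmb5 from mouse to mouse were found after the mean of each group was taken out, by Pearson r over the 9 mice (7 degrees of freedom) among the 10155 genes averaging 1 FPKM or more. They are given as a description. For Psmb8 they were Fnta (r = 0.952), Trim30d (0.951) and Trim12a (0.915), and Psme2 came at place 12 (0.882). For Ubd they were Pcolce (0.979), Eid1 (0.974) and Fermt3 (0.973), and no other of the 9 genes was nearer than place 2066, which was Psmb10 (0.406). For Psmb5 they were Fam195a (0.993) and Snrpd2 (0.961), and Psmb6 and Psmb7 were at 0.0587 and 0.0668. Fam195a, which was named by that rule, had an FPKM of 14.3 ± 4.63 (SD, n = 3) after anti-CD40 and 60.9 ± 7.32 (SD, n = 6) in controls, without overlap.

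Other annotated genes overlap some of the 9 in GENCODE, namely Gm16156 at Psmb10, Gm20496 at Psmb8, Tap1 at Psmb9 and Nek6 at Psmb7. The share of windows of 50 bases at the transcript end that occurred in another gene was 0 for Psmb8, Psmb9, Psmb10, Psmb7 and Ubd and 4.43% for Psmb6.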
